A study of Mus musculus with 4 samples.

Results

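Olfactory and vomeronasal receptor genes are normally silent outside sensory neurons of the nose, and the ATAC-seq peaks at these genes in dermal fibroblasts are described here as a reference for silent chromatin. The members described here are all peaks of any strength whose midpoint lay inside, or within 10000 bp of, an mm10 protein-coding gene whose symbol starts with Olfr, Vmn1r or Vmn2r. They number 19998 of 1705856 peaks in 4 libraries: 4836 of 433013 in control, 7881 of 585165 in knockout cells, 3383 of 340240 with vehicle and 3898 of 347438 with rotenone. The genes number 1461, of which 1109 are Olfr, 229 Vmn1r and 123 Vmn2r, and their merged windows cover 30.2 Mb, or 1.14% of the genome between the first and last peak of each chromosome. Another 4 receptor genes of the table (1465 in all) carry scaffold positions and could not be placed.

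ATAC-seq marks open chromatin by the insertion of adapters with the Tn5 transposase. All 4 libraries came from dermal fibroblasts of C57BL/6 mice and are labelled 100 days, without a statement of what the days count. The control cells were Sod2+/+, the knockout cells carried a conditional deletion of Sod2 (Sod2-/-), the vehicle cells were Sod2+/+ with vehicle, and the rotenone cells were Sod2+/+ with rotenone (labelled 250 µM), which blocks complex I of the respiratory chain. Sod2 encodes the manganese superoxide dismutase of mitochondria. The labels name no Cre driver, deleted exon, exposure time or number of animals. Each group had 1 library, so no difference between groups could be tested, and no p-value is given. Intervals are 95% Wilson intervals and cover counting error only.

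Odorant receptors (Olfr) are G protein-coupled receptors of olfactory sensory neurons, which transcribe a single allele of a single receptor gene and keep the rest of the family in compact chromatin. Vmn1r and Vmn2r genes encode the pheromone receptors of the vomeronasal organ. Olfr and Vmn1r coding sequences usually lie in 1 exon, while Vmn2r genes have several exons and a large extracellular domain. The families lie in tandem arrays, with few other genes between them, and many members are recent copies of their neighbours. A few odorant receptors are also known outside the nose, such as Olfr78 in blood vessels and the carotid body.

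The sequences of receptor promoter windows that carried a peak in every list are given first. A weak peak in such a window does not show that the gene is active. A promoter window of 300 bp around an annotated start was known for 1267 of the 1461 genes (1272 windows, RefSeq, GRCm38.p6). Of these windows, 1132 overlapped no peak in any list, 112 a peak in 1 list, 18 in 2, 5 in 3 and 5 in all 4. In 76.2% of the 1272 windows ATG follows the annotated start, against 3.80% for other protein-coding genes. Many receptor windows therefore stand at the start of the coding sequence and need not hold the promoter. The 5 windows with a peak in every list belonged to Vmn2r29, Olfr212, Olfr550, Olfr341 and Vmn1r51. Olfr373 is added because its window held the only strong peak of an Olfr promoter, where strong means among the 30000 peaks of a list with the highest −log10 p. Each line holds the 250 bases before the start, 5′ to 3′ on the strand of the gene. Capitals mark matches, on either strand, to the AP-1 site TGANTCA, the ETS site AGGAAGT, the CTCF core CNAGGTGGC, the EBF core CCCNNGGG or the homeodomain site TAATTA. No marked match overlaps another.
Vmn2r29: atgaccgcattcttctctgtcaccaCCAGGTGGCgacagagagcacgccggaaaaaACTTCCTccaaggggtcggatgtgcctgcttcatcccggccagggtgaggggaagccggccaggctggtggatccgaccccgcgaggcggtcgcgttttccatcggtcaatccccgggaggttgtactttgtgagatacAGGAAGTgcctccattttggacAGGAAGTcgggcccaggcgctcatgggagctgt
Olfr212: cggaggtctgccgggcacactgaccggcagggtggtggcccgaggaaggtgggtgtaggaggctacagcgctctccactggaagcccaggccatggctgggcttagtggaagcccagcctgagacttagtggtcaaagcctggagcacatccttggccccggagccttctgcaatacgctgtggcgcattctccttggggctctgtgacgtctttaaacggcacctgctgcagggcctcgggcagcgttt
Olfr550: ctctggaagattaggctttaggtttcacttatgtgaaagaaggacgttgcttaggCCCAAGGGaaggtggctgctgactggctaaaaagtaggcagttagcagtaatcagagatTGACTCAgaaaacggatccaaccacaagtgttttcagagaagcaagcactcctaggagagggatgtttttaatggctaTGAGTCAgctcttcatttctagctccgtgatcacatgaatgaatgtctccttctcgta
Olfr341: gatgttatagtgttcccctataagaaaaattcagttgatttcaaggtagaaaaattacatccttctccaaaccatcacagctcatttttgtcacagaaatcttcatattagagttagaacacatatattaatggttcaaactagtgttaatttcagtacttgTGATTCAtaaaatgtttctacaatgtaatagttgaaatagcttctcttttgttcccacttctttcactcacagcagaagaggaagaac
Vmn1r51: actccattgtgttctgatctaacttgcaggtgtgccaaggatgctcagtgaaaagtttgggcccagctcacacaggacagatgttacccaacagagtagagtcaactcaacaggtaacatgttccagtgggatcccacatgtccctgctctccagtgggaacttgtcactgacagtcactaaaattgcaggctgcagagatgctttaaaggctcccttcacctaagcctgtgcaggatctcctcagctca
Olfr373: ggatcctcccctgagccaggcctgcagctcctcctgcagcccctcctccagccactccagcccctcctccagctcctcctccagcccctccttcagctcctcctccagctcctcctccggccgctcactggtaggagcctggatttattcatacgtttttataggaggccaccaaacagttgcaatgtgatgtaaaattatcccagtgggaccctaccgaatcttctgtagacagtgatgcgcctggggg

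The first sequence lies at chr7:7278290-7278539 on the minus strand, before Vmn2r29. It holds 17 CpG dinucleotides, 3 ETS matches and 1 match to the CTCF core. Its peak was strong in all 4 lists, with a fold (the enrichment the authors' caller assigned to the peak, which belongs to its own list, so that folds of different lists stand side by side and measure no change) of 5.44 (control), 5.36 (knockout), 5.64 (vehicle) and 5.25 (rotenone). The peak was wide, at 602, 368, 1019 and 852 bp. It is the only receptor promoter with a strong peak in every list.

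Olfr212 (chr6:116506266-116506515, plus strand) follows with 12 CpG dinucleotides. Its peak was of moderate strength in every list, with folds of 3.47 (control), 3.39 (knockout), 5.26 (vehicle) and 3.76 (rotenone) and widths of 220 to 256 bp. Vmn2r29 and Olfr212 were the only 2 of the 1272 receptor windows with 10 or more CpG dinucleotides before the start, and both had a peak in all 4 libraries. Among other protein-coding genes, 53.3% of 19990 windows reached that number. The median receptor window held 1 CpG and 34.8% G and C bases, against 11 CpG and 56.4% elsewhere. Of the 1270 receptor windows under 10 CpG, 42 overlapped a peak in control, 81 in knockout cells, 29 with vehicle and 23 with rotenone. Most receptor windows with a peak therefore held few CpG dinucleotides, and of the other 3 windows with a peak in all 4 lists, Olfr550 held 4 and Olfr341 and Vmn1r51 held 0. The part of base composition in the peaks was not tested.

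Olfr550, an odorant receptor of the class I array, lies beside the strong Trim21 peak described further on. Its own promoter window (chr7:102578219-102578468, plus strand) holds 2 AP-1 matches and 1 EBF match. The edge of the gene span nearest the Trim21 peak is 5963 bp from the middle of that peak, so this window lies inside the span and not at its beginning. The folds there were 3.34 (control), 2.78 (knockout), 3.64 (vehicle) and 3.95 (rotenone), none of them strong. AP-1 is the family of JUN and FOS proteins that gives the study its title factor, JunB. Matches to the AP-1 letters stood before 175 of 1272 receptor starts (13.8%) and before 6.13% of all 21262 starts of the table. The ETS letters stood before 4.64% of receptor starts and 7.32% of all, the CTCF core before 0.236% and 1.30%, the EBF core before 3.85% and 13.5%, and the homeodomain letters, which are made of A and T alone, before 16.1% and 4.31%. The motifs were chosen after these sequences were seen, and a match is a description of the letters, not of binding.

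Olfr341 (chr2:36480129-36480378, minus strand, 1 AP-1 match) and Vmn1r51 (chr6:90122393-90122642, plus strand, no match) had weak peaks. At Olfr341 all 4 peaks lay on the gene side of the start, where they reached into the last 50 bases of the window, and none touched the bases shown. The Vmn1r51 peak in control also lay past the start, off the bases shown, while those of the other libraries touched them. The Olfr341 peak had a fold of 2.40 (control), 2.74 (knockout), 3.23 (vehicle) and 3.37 (rotenone). At Vmn1r51 the folds were 2.80, 2.32, 2.58 and 3.01 in the same order, but they do not belong to a single shared peak. The control and vehicle peaks overlapped each other, and so did the knockout and rotenone peaks. Neither of the latter overlapped the control or vehicle peak. The Olfr373 window (chr8:72099512-72099761, plus strand) held the same 78 bp peak in vehicle, where it was strong with a fold of 6.23, and in control, with a fold of 4.95. The knockout and rotenone lists held no peak there.

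Over all promoter windows, a peak of any strength overlapped 44 receptor windows in control (3.46%, interval 2.59 to 4.61), 83 in the knockout (6.53%, 5.29 to 8.02), 31 in vehicle (2.44%, 1.72 to 3.44) and 25 in rotenone (1.97%, 1.33 to 2.89). For other protein-coding genes the shares were 62.4%, 59.4%, 60.9% and 57.6%. A strong peak overlapped 1 receptor window in control, 1 in knockout cells, 2 with vehicle and 1 with rotenone, against 35.4%, 35.0%, 35.1% and 35.5% of other windows. The larger knockout number came with a longer list. With every list shortened to its 340240 strongest peaks, the counts were 29, 36, 31 and 23. By family at that length, in the order control, knockout, vehicle and rotenone, peaks overlapped 19, 18, 20 and 12 of 948 Olfr windows, 9, 8, 7 and 8 of 118 Vmn2r windows and 1, 10, 4 and 3 of 206 Vmn1r windows. Only the Vmn1r count was above control in the knockout, and its interval (2.66% to 8.70%) overlapped that of control (0.0857% to 2.70%).

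Receptor chromatin was not empty of peaks, but it was poor in strong ones. In control, 160 peaks per Mb lay in receptor windows and 163 per Mb in the genome, a ratio of 0.984. The knockout had 261 against 220 per Mb, a ratio of 1.19. In vehicle the values were 112 and 128 per Mb (ratio 0.876), and in rotenone 129 and 131 (ratio 0.988). At the equal length of 340240 peaks, receptor peaks made up 1.01% of the control list (interval 0.974 to 1.04), 1.13% of the knockout list (1.09 to 1.16), 0.994% of the vehicle list (0.962 to 1.03) and 1.11% of the rotenone list (1.08 to 1.15). The knockout and rotenone intervals lay above those of the libraries they are paired with. With 1 library a group, this cannot be told apart from a difference between library preparations.

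Among the 30000 strongest peaks the picture changed. Receptor windows held 70 of them in control, 78 in knockout cells, 82 with vehicle and 79 with rotenone, or 0.233%, 0.260%, 0.273% and 0.263% of each strong list. The density of strong peaks in receptor windows was 4.87-fold lower than in the genome in control, 4.37-fold lower in knockout cells, 4.15-fold lower with vehicle and 4.31-fold lower with rotenone. Of the members themselves, 1.45% were strong in control, 0.990% in knockout cells, 2.42% with vehicle and 2.03% with rotenone, against 6.93%, 5.13%, 8.82% and 8.63% of the whole lists. The 4 intervals on the members' shares, from 0.794% to 3.00% over all libraries, lay far below these values.

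**Figure D1:**
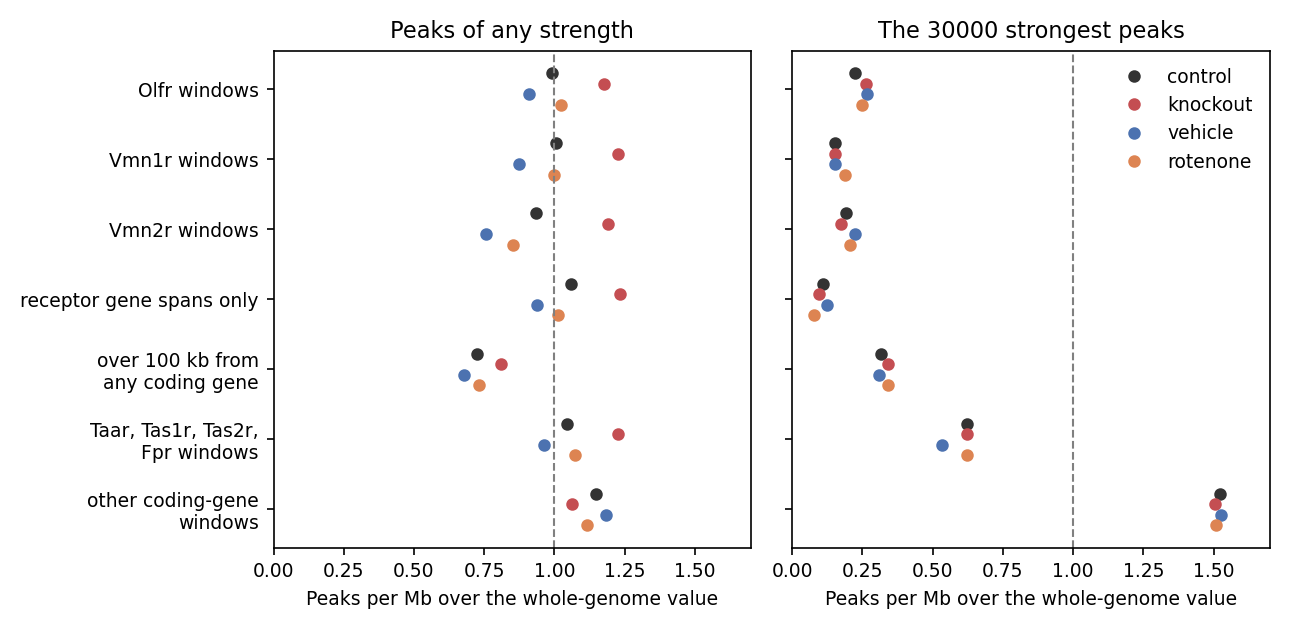
Peaks per Mb divided by the whole-genome value (x axis, no unit) for peaks of any strength (left) and for the 30000 strongest (right), 1 point per library, in windows of the 3 receptor families and in comparison regions. Receptor windows lie near 1 on the left and below 0.3 on the right in every library, while windows of other protein-coding genes lie above 1.5 on the right.

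The receptor windows were poorer in strong peaks than gene-free DNA. Regions over 100 kb from any protein-coding gene, 760 Mb in all, had 0.316 of the genome's strong density in control, 0.340 in knockout cells, 0.310 with vehicle and 0.341 with rotenone. The receptor values were 0.206, 0.229, 0.241 and 0.232. For peaks of any strength the order was the opposite, since the gene-free regions had ratios of 0.725, 0.809, 0.677 and 0.731, all below the receptor ratios of the same library. Windows of 60 other chemosensory receptor genes (Taar, Tas1r, Tas2r and Fpr), which are silent in most tissues too, had strong ratios of 0.621 in control, the knockout and rotenone and 0.532 in vehicle, resting on only 6 or 7 strong peaks a library. Inside the receptor gene spans, without the 10000 bp around them, 7 strong peaks lay in control, 6 in knockout cells, 8 with vehicle and 5 with rotenone, a density of 0.0780 to 0.125 of the genome's.

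All 3 families were poor in strong peaks. Olfr windows held 50, 59, 60 and 56 strong peaks in control, knockout, vehicle and rotenone, and had strong ratios of 0.223, 0.263, 0.267 and 0.249. Vmn1r windows held 8, 8, 8 and 10, with ratios of 0.151, 0.151, 0.151 and 0.188. Vmn2r windows held 12, 11, 14 and 13, with ratios of 0.191, 0.175, 0.223 and 0.207. The Olfr ratio was the highest of the 3 in each library, and the Vmn1r and Vmn2r ratios rest on 8 to 14 peaks a library. The difference between families was not tested.

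Receptor peaks were also narrower and less enriched than the lists they came from. The median fold of members was 2.29 in control (quartiles 2.17 and 2.51) against 2.40 for the list, 2.17 (2.07 and 2.35) against 2.23 in the knockout, 2.63 (2.47 and 2.92) against 2.79 in vehicle and 2.65 (2.49 and 2.91) against 2.75 in rotenone. The median width was 42 bp against 53 bp in control, 42 against 47 bp in knockout cells, 48 against 62 bp with vehicle and 55 against 65 bp with rotenone. The median −log10 p was 3.80 against 4.28, 3.68 against 3.94, 4.26 against 4.83 and 4.13 against 4.47. The upper quartiles were further apart than the medians: members reached widths of 63, 67, 72 and 102 bp there, and the lists 111, 85, 136 and 137 bp.

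Split by strength, the receptor share rose from the strong to the weak end of each list, with small reversals in the weaker deciles. In the strongest decile of peaks it was 0.254% (control), 0.323% (knockout), 0.279% (vehicle) and 0.285% (rotenone), below the 1.14% that the windows take of the genome. It passed that share in the fifth decile in control and vehicle, the fourth in rotenone and the third in the knockout. In the ninth decile it reached 1.52%, 1.62%, 1.49% and 1.48%. In the second decile the shares were 0.388% in control and 0.353% in vehicle, and 0.870% in the knockout and 0.527% in rotenone, in lists of different length. Over bands of equal rank the knockout stood above control in each band, and rotenone above vehicle in each but the first. Among ranks 1 to 30000, rotenone had 79 members and vehicle 82. The gaps were widest between rank 60001 and 120000, where receptor peaks made up 0.617% (control), 0.885% (knockout), 0.660% (vehicle) and 0.985% (rotenone). Between rank 240001 and 340240 the shares were 1.48%, 1.52%, 1.41% and 1.46%. With 1 library a group, these gaps cannot be told apart from a difference between library preparations.

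**Figure D2:**
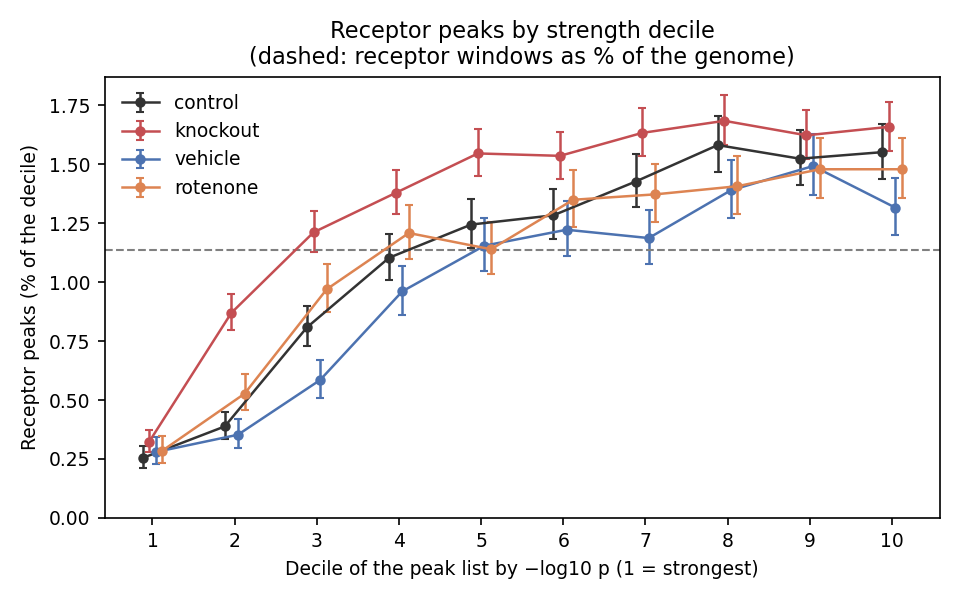
Receptor peaks as a percent of the peaks in each decile of a list (y axis), from the strongest decile (1) to the weakest (10), 1 line per library with 95% Wilson intervals. The share starts between 0.254% and 0.323% in the strongest decile and ends above the dashed line, the 1.14% of the genome that receptor windows cover.

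Peaks were somewhat denser just inside the edge of the windows than just outside it in all 4 libraries, while their median folds were close. In the last 1000 bp inside the limit of 10000 bp, control had 180 peaks per Mb with a median fold of 2.30, and in the next 1000 bp outside it 152 per Mb with 2.31. The knockout had 306 and 287 per Mb, vehicle 128 and 109, and rotenone 156 and 126.

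At the gene starts, receptor genes lacked the peak that marks other genes. Within 500 bp of a start, other protein-coding genes had 980 peaks per kb per 1000 starts in control, 1054 in knockout cells, 850 with vehicle and 798 with rotenone, which was 4.74, 3.88, 4.97 and 4.68 times their level beyond 5000 bp. Receptor genes had 151, 248, 111 and 150, or 0.884, 0.881, 0.935 and 1.06 times their level beyond 5000 bp. Many receptor models begin at the coding sequence: 76.2% of receptor windows have ATG as the first bases after the start, against 3.80% elsewhere, so the annotated start of these models is often the start of the coding sequence.

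The receptor profile was not flat. Peaks were sparse before the start and more frequent in the first 1000 bp after it, where the single coding exon of most Olfr and Vmn1r genes lies (median gene span 951 bp for Olfr and 924 bp for Vmn1r). For Olfr genes, 73 peaks lay in the 1000 bp before the start and 200 in the 1000 bp after it in control, 95 and 277 in knockout cells, 42 and 169 with vehicle and 50 and 194 with rotenone. Vmn1r genes showed 12 and 63, 46 and 90, 13 and 48, and 10 and 50. Vmn2r genes, whose median span is 24544 bp and whose coding sequence is split, showed the opposite order, with 22 and 19, 47 and 27, 13 and 9, and 22 and 4. For other protein-coding genes the peaks after the start were 0.988 to 1.12 times those before it. Nearly all of these receptor peaks were weak: of the peaks after a receptor start, 2 were strong in control, 1 in knockout cells, 2 with vehicle and 1 with rotenone. Base composition along the genes beyond the promoter windows was not analysed here.

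**Figure D3:**
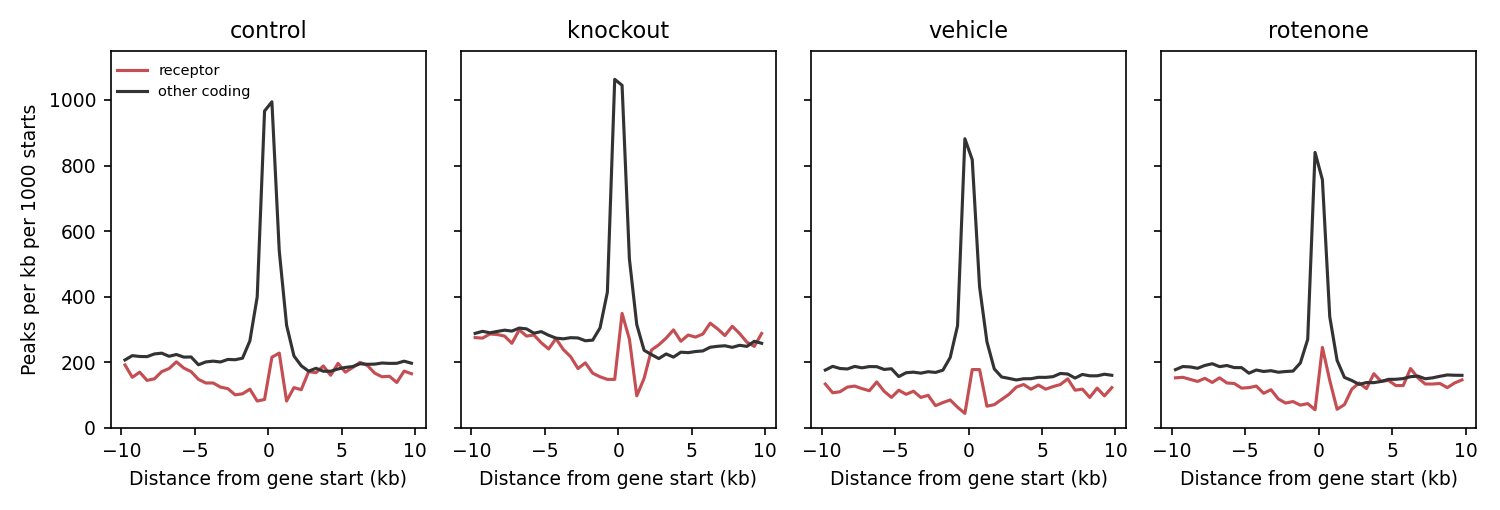
Peak midpoints per kb per 1000 gene starts (y axis) against the distance from the annotated start in kb, with the gene running to the right (x axis), in bins of 500 bp, for 1272 receptor starts and 19990 other protein-coding starts in each library. The other genes rise at the start, while the receptor line dips before it and has a low step within the first 1000 bp after it.

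Counted by gene, 1284 of 1461 receptor windows held a peak in control, 1336 in knockout cells, 1203 with vehicle and 1235 with rotenone, mostly weak ones. A strong peak stood in 71 windows in control (4.86%), 78 in knockout cells (5.34%), 80 with vehicle (5.48%) and 81 with rotenone (5.54%), against 65.5%, 66.0%, 65.9% and 66.8% of the windows of other protein-coding genes. These shares compare windows of unlike length. Merged windows cover 1257 Mb for 20314 other genes and 30.2 Mb for the 1461 receptor genes. Per Mb, receptor windows held 2.32, 2.58, 2.71 and 2.61 strong peaks in control, knockout, vehicle and rotenone. Windows of other genes held 17.1, 17.0, 17.2 and 17.0. No strong peak in any library stood in 1355 receptor windows (92.7%), and 50 had one in all 4. Within 1000 bp of a gene end, 8 receptor genes had a strong peak in control, 9 in knockout cells, 10 with vehicle and 8 with rotenone, or 0.548% to 0.684% of them, against 39.5% to 40.2% of other genes.

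A set of vomeronasal genes had no peak at all. In all 4 lists together, 79 receptor windows were empty: 59 Vmn1r, 11 Vmn2r and 9 Olfr. All 59 empty Vmn1r genes lie in a single part of chromosome 7. Between chr7:20078410-23286646, 16 peak-free stretches of at least 50000 bp held 64 Vmn1r genes and added up to 2.87 Mb, the longest with 10 genes at chr7:20199791-20602763. A gene inside a peak-free stretch can still have a peak within 10000 bp, so this count is larger than that of empty windows. The array around them (chr7:20101158-24055691, 86 Vmn1r genes from Vmn1r91 to Vmn1r183) had the lowest density of the 28 arrays with 10 or more genes, 0.242 of the genome's in control, 0.323 in knockout cells, 0.197 with vehicle and 0.189 with rotenone, with 0 strong peaks in each. In a second part of chromosome 7, 13 Vmn2r genes lay in such stretches, from Vmn2r32 to Vmn2r49. Peak-free stretches of this length held 77 receptor genes in all (5.27%) and 445 of 20314 other protein-coding genes (2.19%).

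Most empty Vmn1r and Vmn2r genes had promoters made almost wholly of sequence found in other receptor promoters, and none of the empty Olfr genes did. As a measure of copying, each receptor promoter was cut into words of 20 bases, and the share of words that also occur in the promoter of another receptor gene was counted. Over 90% of the words were shared in 55 of the 57 promoters of empty Vmn1r genes, and in 9 of the 149 promoters of Vmn1r genes with a peak. For Vmn2r the counts were 6 of 10 and 9 of 108. The 9 promoters of empty Olfr genes shared a median of 0% of their words. Reads from repeated sequence cannot be placed at a unique position, and how the authors treated such reads is not given in the sources used here, so for these Vmn1r and Vmn2r genes the lack of peaks cannot be told apart from a lack of placed reads. These genes lower the receptor density only a little: without all peak-free stretches of 50000 bp or more, the ratio to the genome was 1.0 in control and rotenone, 1.21 in the knockout and 0.890 in vehicle.

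**Figure D4:**
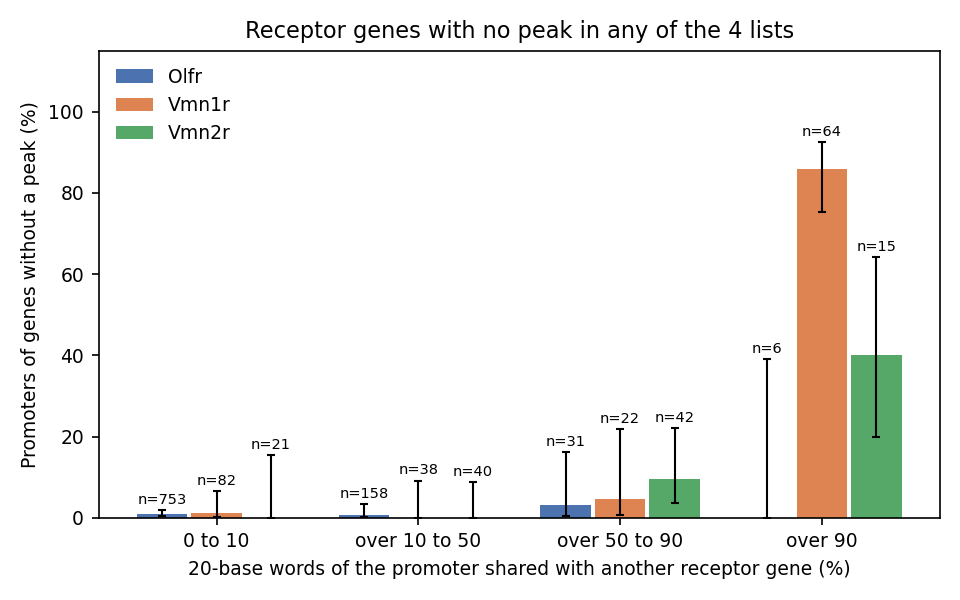
Promoters of receptor genes with no peak in any of the 4 lists, as a percent of the promoters in each class (y axis), by the share of their 20-base words that occurs in another receptor promoter (x axis), with 95% Wilson intervals and the number of promoters. In the class over 90%, 85.9% of 64 Vmn1r promoters and 40.0% of 15 Vmn2r promoters belong to empty genes, while in the class up to 10% it is at most 1.22% in each family.

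Among 28 arrays of 10 or more genes (receptor genes less than 1000000 bp apart), the density ratio to the genome ran from 0.242 to 1.67 in control, with a median of 1.06. The densest in control were the array of 15 Vmn1r genes at chr6:89711261-90270053 (Vmn1r40 to Vmn1r54), with ratios of 1.67 (control), 2.03 (knockout), 1.53 (vehicle) and 1.64 (rotenone), the array of 13 Olfr genes at chr4:118665519-118934840 (Olfr62 to Olfr1328), with 1.66, 2.19, 1.31 and 2.01, and the array of 30 Olfr genes at chr11:73350859-74365609, with 1.66, 1.76, 1.23 and 1.38. The order differed between libraries: in the knockout the densest was an array of 10 Vmn2r genes at chr5:108797193-109453387 (Vmn2r8 to Vmn2r17), with a ratio of 2.52, and its other ratios were 1.45 in control, 1.05 in vehicle and 1.55 in rotenone. The Vmn1r array held 6, 6, 5 and 8 strong peaks, while the Olfr arrays held 0 or 1 in each library, so the densest arrays in control were not all rich in strong peaks. Besides the Vmn1r array with the empty genes, the lowest ratios in control were 0.659 at chr7:5146490-13220289 (72 genes of all 3 families) and 0.629 at chr1:172956768-174449602 (19 Olfr genes). The largest array, 222 Olfr genes at chr2:85330967-90401674, had ratios of 0.731, 0.888, 0.662 and 0.660, and the class I array of 126 Olfr genes at chr7:102476773-105369317 had 0.850, 0.934, 0.836 and 0.882. The knockout ratio was above control in 25 of the 28 arrays and the rotenone ratio above vehicle in 23, and vehicle was above control in 3. Arrays of 1 library share its length and quality and are not replicates.

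The strong receptor peaks of the 4 libraries merged into 114 regions. Of these, 18 had another protein-coding gene within 1000 bp, 17 a receptor gene and no other coding gene, 16 only a non-coding gene or pseudogene, and 63 no annotated gene. Each distance printed below for a named gene runs from the middle of the region to the nearest edge of the gene. Of the 10 regions that were strong in all libraries and strongest in control, 6 lay within 1000 bp of another protein-coding gene. The region at chr1:174031677-174032214 counts for Olfr433, 9988 bp away, and overlaps Ifi205, an interferon-inducible gene whose edge is 190 bp from its middle. It had a fold of 16.6 (control), 15.5 (knockout), 18.03 (vehicle) and 15.5 (rotenone). The region at chr7:102565154-102565783 counts for Olfr550 and lies on Trim21, the gene of a cytosolic antibody receptor, with folds of 16.3, 16.6, 14.5 and 15.5. That at chr16:3846887-3847509 lies on the zinc finger gene Zfp174, 7285 bp from Olfr15, with folds of 12.3, 12.5, 12.3 and 13.1. At chr6:56923438-56924518 the peak lies on Nt5c3, a nucleotidase gene that overlaps the span of Vmn1r4, with folds of 8.30, 8.87, 8.97 and 8.49. The region at chr11:58846956-58847462 lies on the predicted gene Gm12258, 5167 bp from Olfr311, with folds of 15.6, 13.7, 15.5 and 12.8, and that at chr15:98181144-98181709 lies by the non-coding gene Gm33909, 4585 bp from Olfr288, with 14.4, 11.9, 14.3 and 12.04. The Vmn2r57 region at chr7:41392980-41393941, which overlaps AI987944, had 8.62, 7.75, 8.54 and 8.79. All these peaks were strong in every list.

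Peaks near another coding gene supplied 25 of the 70 strong members in control, 25 of 78 in knockout cells, 29 of 82 with vehicle and 23 of 79 with rotenone, though they were only 4.90%, 3.96%, 5.23% and 4.67% of all members. Without them, 45, 53, 53 and 56 strong peaks stood in windows of receptor genes alone, where 0.978%, 0.700%, 1.65% and 1.51% of members were strong.

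Some strong regions had no other gene at hand. At chr17:19658575-19658744, 1740 bp from Vmn2r102, a peak of 84 to 168 bp had folds of 14.1 (control), 26.7 (knockout), 23.8 (vehicle) and 19.6 (rotenone), and the nearest other coding gene, Fpr-rs7, lay 454551 bp away. At chr14:49932704-49932747, 3157 bp from Olfr723, a peak of 44 bp had the same start and end in all 4 lists, 1 of 158 such peaks in the genome, and folds of 48.4 (control), 41.8 (knockout), 10.7 (vehicle) and 8.85 (rotenone). This was the highest fold of any strong member in control and the knockout. The middle of a region at chr7:102483671-102484151 lay 203 bp beyond Olfr544, at the end away from its annotated start. The region reached into the gene span in vehicle only, and its folds were 12.2, 10.9, 11.7 and 10.7. A further 3 peaks of 236 to 238 bp lay inside Vmn2r20, Vmn2r21 and Vmn2r22 on chromosome 6 with near-equal folds in each library, from 5.69 to 6.03 in control and from 4.00 to 4.17 in the knockout. Similar sets of near-equal peaks lay beside Olfr1382 (fold 8.99 in control and 4.88 in the knockout) and Olfr1373 (8.89 and 4.86) on chromosome 11. Members of such sets may be copies of each other, and the reads behind them are uncertain for that reason. These sets, unlike the other regions here, were picked after their values were seen.

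By gene, the most strong peaks over the 4 libraries fell to Olfr433 (3, 3, 4 and 2 in control, knockout, vehicle and rotenone), Olfr432 (3 in each) and Olfr94 (4, 3, 3 and 2). Olfr433 and Olfr432 lie side by side near Ifi205, and Olfr94 lies beside Ubd, a ubiquitin-like gene. The windows of Olfr433 and Olfr432 overlap, so the strong regions at chr1:174040813-174041246 and chr1:174048826-174049261 count for both. Among Vmn1r genes, Vmn1r46 held 1, 1, 1 and 2, Vmn1r195 held 1, 1, 2 and 1, and Vmn1r4 held 1 in each. Among Vmn2r genes, Vmn2r29 held 2 in each, at its promoter and near the zinc finger gene Zfp772, and Vmn2r102 and Vmn2r57 held 1 in each. The Vmn2r57 region overlaps another gene, AI987944, whose edge lies 81 bp from the middle of the region.

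The listed receptors, which were known outside the nose or well studied, gave mixed values. Olfr16, an odorant receptor also known from sperm and muscle, had 1 strong peak in its window in every library, and so did Olfr544, known from liver and fat. The Olfr16 peak lay 2776 bp from the gene and within 1000 bp of the non-coding gene Gm35686. The middle of the Olfr544 region lay 203 bp from its gene, and the vehicle peak reached into the gene span. Olfr78 had 7 peaks in control, 11 in knockout cells, 3 with vehicle and 7 with rotenone, and Olfr558, a receptor of the class I array, had 3, 4, 3 and 3, with 0 strong among them. Olfr2, reported in macrophages, had 3, 4, 4 and 5 weak peaks. Olfr17 had 2 in the knockout and 0 elsewhere, Olfr73 had 0, 2, 1 and 2, and Olfr1507 had 4, 7, 2 and 2, all weak. The vomeronasal receptors Vmn2r26 and Vmn2r116 had 15, 16, 9 and 8 and 6, 14, 4 and 5 peaks, with 0 strong in every library. Olfr151 is a transcribed pseudogene in the gene table and was not a member.

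Weak receptor peaks were seldom shared between libraries. Merged over the 4 lists, 14298 member regions were found, of which 10803 (75.6%) stood in 1 list, 2185 in 2, 732 in 3 and 578 (4.04%) in all 4. Over the genome, 67.1% of regions stood in 1 list and 10.97% in all 4. Strong regions were shared more: 46 of 114 (40.4%, interval 31.8 to 49.5) were strong in all 4 libraries, and over the genome 46.1% were. Strong in the knockout and rotenone alone were 12 regions (10.5%, interval 6.12 to 17.5, against 6.18% over the genome), and strong in control and vehicle alone were 8 (7.02%, 3.60 to 13.2, against 7.52%). All 3 genome values lie inside the intervals of the members. Of the 12, a pair of 211 bp each was chosen after its values were seen. It lay at chr17:37075898-37076108 and chr17:37088873-37089083, 9188 and 2742 bp from Olfr90. The first was closer to another coding gene, Gabbr1, at 1698 bp, and the second lay 14673 bp from Gabbr1. Both were strong in the knockout list, with folds of 7.22 and 6.03, and in the rotenone list, with 7.25 and 6.26. In control the folds were 5.05 and 3.92 and in vehicle 4.49 and 4.13, and neither peak was strong there.

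The study set the knockout against control and rotenone against vehicle. A strong peak was called present in 1 library only when it overlapped none of the 60000 strongest peaks of its partner by 1 bp. Of 78 strong knockout members, 6 were absent from control (7.69%, interval 3.57 to 15.8), and of all strong knockout peaks 5.33% were. Of 70 strong control members, 5 were absent from the knockout (7.14%, 3.09 to 15.7, against 6.76% of all). In rotenone 3 of 79 were absent from vehicle (3.80%, 1.30 to 10.6, against 6.81%), and in vehicle 10 of 82 were absent from rotenone (12.2%, 6.76 to 21.0, against 8.04%). Vehicle against control, which differ in neither Sod2 nor rotenone, gave 2 of 82 in vehicle (against 1.03%) and 1 of 70 in control (against 0.847%). Each interval printed here included the share of all strong peaks, so no difference from the genome was detectable at this threshold. That did not hold for rotenone at a stricter one: of the 15000 strongest peaks set against the 30000 strongest of vehicle, 8 of 46 rotenone members had no counterpart (17.4%, interval 9.09 to 30.7, against 5.52% of all).

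The knockout regions counted for Olfr287, Vmn2r77, Vmn2r25, Olfr94, Olfr987 and Olfr688. The Olfr94 region lay 3541 bp from that gene and 627 bp from Ubd, and the Olfr987 region lay 8548 bp from its gene. The best ranked, inside Olfr287 (chr15:98204319-98204490), had a fold of 4.64 in the knockout, 2.62 in control, 3.93 in vehicle and 3.25 in rotenone. All 6 overlapped a weaker control peak. The regions only in control counted for Vmn2r59, Olfr1513, Olfr282, Olfr374 and Olfr806. The best ranked, 8164 bp from Vmn2r59 (chr7:42003584-42003673), had a fold of 8.01 in control and 6.92 in vehicle, and of 2.94 in the knockout and 3.59 in rotenone. The region 1708 bp from Olfr374 (chr8:72105281-72105383) had a fold of 5.76 in control and 4.46 in vehicle, and overlapped no peak in the knockout or rotenone.

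In rotenone, the regions without a vehicle counterpart counted for Olfr1423, Olfr987 and Vmn1r46. The best ranked, 1232 bp from Olfr1423 (chr19:12037774-12038170), had a fold of 7.29 in rotenone, 6.71 in the knockout, 4.90 in control and 3.73 in vehicle. The 10 regions only in vehicle counted for Olfr129, Olfr148, Olfr1513, Vmn2r25, Olfr372, Olfr373, Olfr875, Olfr711, Olfr685 and Olfr1033. The regions of Olfr875 and Olfr685 lay 9898 and 9372 bp from these genes. The best ranked, 4046 bp from Olfr129 (chr17:38050520-38050586), had a fold of 7.37 in vehicle, 6.09 in control, 3.75 in the knockout and 3.25 in rotenone. A region near Olfr987 (chr2:85322243-85322596 in the knockout) met the rule in both comparisons. Its folds were 4.23 in the knockout, 5.30 in rotenone, 2.77 in control and 2.81 in vehicle. The region 5114 bp from Olfr1513 (chr14:52343726-52344252) met it in the other direction in both, with folds of 5.83 in control, 6.98 in vehicle, 2.96 in the knockout and 3.21 in rotenone.

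One step down in strength, the comparison came out differently. With strong lists of 60000 and partner lists of 120000, 51 of 196 knockout members were absent from control (26.0%, interval 20.4 to 32.6, against 12.1% of all peaks) and 64 of 212 rotenone members from vehicle (30.2%, 24.4 to 36.7, against 15.6%). In the other direction, 28 of 164 control members (17.1%, 12.1 to 23.6, against 14.0%) and 36 of 182 vehicle members (19.8%, 14.6 to 26.2, against 16.5%) lacked a counterpart. Vehicle against control gave 12 of 182 (6.59% against 4.08%) and 9 of 164 (5.49% against 3.45%). Since weaker peaks lack counterparts more often and members are weaker than the list, the peaks of rank 30001 to 60000 were also taken alone. There, 49 of 118 knockout members (41.5%, 33.0 to 50.5, against 23.0%) and 62 of 133 rotenone members (46.6%, 38.4 to 55.1, against 29.1%) had no counterpart. For control it was 26 of 94 (27.7%, 19.6 to 37.4, against 25.9%), and for vehicle 32 of 100 (32.0%, 23.7 to 41.7, against 29.9%). Vehicle against control gave 12 of 100 (12%, 7.0 to 19.8, against 7.93%) and 9 of 94 (9.57%, 5.12 to 17.2, against 6.73%).

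**Figure D5:**
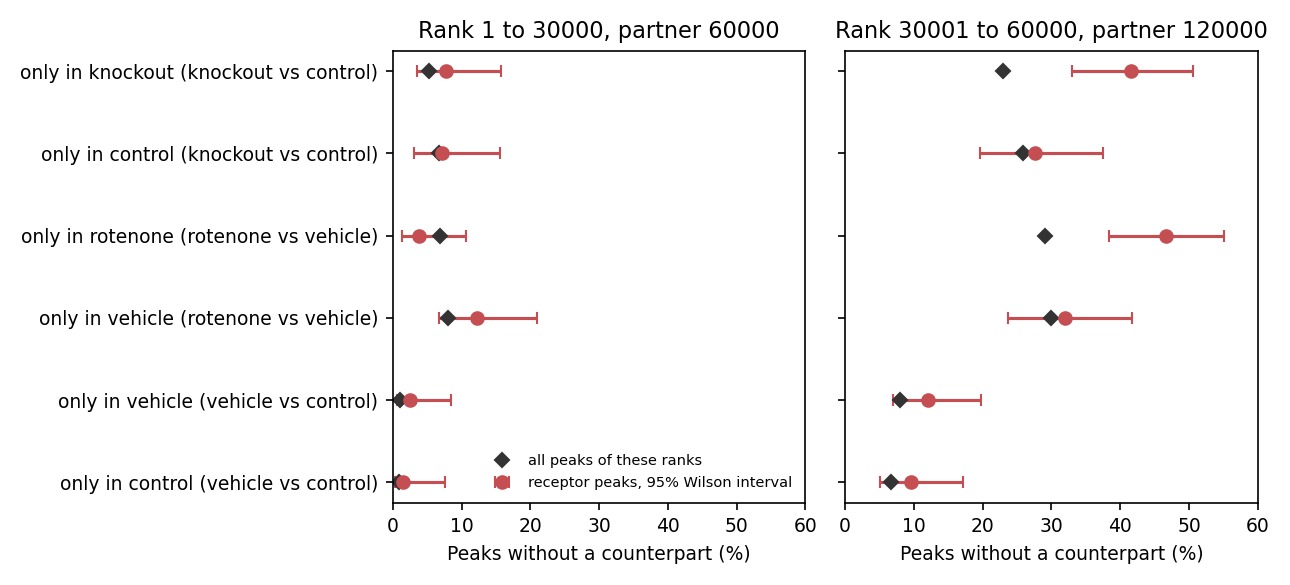
Peaks without a counterpart in the partner library, as a percent of the receptor peaks (circles with 95% Wilson intervals) and of all peaks (diamonds) of the same ranks, for the 30000 strongest (left) and for rank 30001 to 60000 (right). On the left every interval holds its diamond, and on the right the receptor values of the knockout (41.5%) and rotenone (46.6%) lie above 23.0% and 29.1% for all peaks.

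This excess in the middle ranks was not particular to receptors. In regions over 100 kb from any protein-coding gene, 34.8% of the knockout peaks of rank 30001 to 60000 and 41.7% of the rotenone peaks had no counterpart, inside the receptor intervals, and near other protein-coding genes the shares were 18.8% and 24.6%. Between the lists of 60000, 6 of the 51 knockout regions overlapped a rotenone region (11.8% of the 51, and 9.38% of the 64), and 6 of the 28 control regions overlapped a vehicle region (21.4% of the 28, and 16.7% of the 36). The overlap over all peaks was not computed. Regions without a counterpart were narrower in both directions, with median widths of 83 bp in the knockout, 66.5 bp in rotenone, 79 bp in control and 89 bp in vehicle, against 176, 157, 209 and 196.5 bp for members with one. A narrow peak meets a rule of 1 bp of overlap less easily, and these widths were not computed over all peaks. They are therefore not read as a trait of receptor regions. No partner peak of any strength was overlapped by 34 of the 51 knockout regions, 43 of the 64 in rotenone, 7 of the 28 in control and 16 of the 36 in vehicle. The full partner lists differ in length, and the same shares over all peaks were not computed. These counts therefore have no background and are not read as a result about receptors.

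The other genes of olfaction were compared by peaks within 1000 bp of a gene end. Of 13 signalling genes, 10 had a peak of any strength in control, 9 in knockout cells, 10 with vehicle and 10 with rotenone, and 3, 4, 3 and 4 a strong one. The strong ones were Cnga4, a channel subunit, Gnai2, a G protein subunit used in most cells, and Ric8b, which assists G proteins, in every library, and Gnao1, a G protein subunit, in the knockout and rotenone. None of the 3 receptor transport genes (Rtp1, Rtp2 and Reep1) had a strong peak in any library. Of 10 regulators of receptor choice, 4 had one in control, 4 in knockout cells, 5 with vehicle and 5 with rotenone, with Atf5, Bptf, Ebf1 and Emx2 in all 4 and Lhx2 in vehicle and Kdm1a in rotenone added. For comparison, 39.5% to 40.2% of protein-coding genes other than receptors had a strong gene end peak. The share of all genes with a gene end peak of any strength was not computed, so the counts of any strength have no background.

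As a check of the tissue label, 11, 11, 11 and 12 of 12 fibroblast markers had a gene end peak of any strength and 4, 3, 4 and 3 a strong one, with Col1a2, Fn1 and Vim in every library and Pdgfrb in control and vehicle. Col1a1, Col3a1, Dcn, Lum, Pdgfra, Prrx1, Thy1 and Twist2 had 0 strong ones. The strong share of fibroblast markers, at most 4 of 12, was below that of other protein-coding genes (39.5% to 40.2%) and no higher than that of keratinocyte markers, so strong gene end peaks did not set the labelled cell type apart. Of the 6 markers of olfactory sensory neurons (Omp, Gng13, Cnga2, Stoml3, Gnal and Adcy3), 5, 4, 4 and 5 had a peak of any strength there and 0 a strong one in every library. Marker counts of any strength lack a share over all genes here too and mark no cell type. Keratinocyte keratin genes Krt10 and Krt14 (2 of 6 markers) and the endothelial gene Tek (1 of 4) had a strong one in all 4, and immune markers (0 of 4) did not. The part of such cells in the receptor peaks was not tested. Sod2 had 2 strong peaks in control, 1 in knockout cells, 2 with vehicle and 1 with rotenone, which checks no genotype since the deleted part is not stated.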

How the data were processed

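ATAC-seq peak lists of 4 dermal fibroblast libraries, 1 per group, were analysed. Per the submitters' processing notes, Bowtie2, bedtools, MACS2 and HOMER were used with the mm10 build, with no versions named. Any Tn5 shift, and the handling of reads that map to several receptor copies, is not given in the sources used here. For each library 1 list was deposited by the authors, with a score (not used), a fold enrichment, which is a ratio over local background, and −log10 p and −log10 q values, read in the order usual for broad MACS2 peaks. The lowest −log10 q of each deposited list was 1.00, so weak peaks are included. Depth is unknown, and no error can be attached to a single peak. The authors' values were used only to describe or rank peaks within a list.

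Starts were made 1-based. Genes came from the RefSeq table of GRCm38.p6, leaving out 112 protein-coding genes (4 of them receptors) whose positions end before the first peak of their chromosome and which were taken to belong to unplaced scaffolds. Peaks were ranked by −log10 p, ties by fold. Named genes were, per family, the 3 with most strong peaks; the 10 strongest control regions that were strong in all libraries; all regions present in 1 library only; a list of receptors known outside the nose or well studied; and the 3 densest and 3 sparsest arrays. Examples added after seeing values are marked. The members and lists were chosen with earlier results of these data known. The overlap code was tested on simulated data. Computation used pandas 2.3.3, numpy 2.4.6, scipy 1.17.1, matplotlib 3.10.9 and Python 3.11.15. Alternatives changed the window, the membership rule, the thresholds and the overlap rule.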

Additional observations from a re-analysis of the deposited data

How the results depend on the processing

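The scarcity of strong receptor peaks held in every library under each alternative. The strong share of members relative to the list, 0.209 (control), 0.193 (knockout), 0.275 (vehicle) and 0.235 (rotenone), moved beyond counting error to 0.141, 0.137, 0.187 and 0.175 without peaks near another coding gene, and to 0.243 in the knockout and 0.315 in rotenone with lists of 60000. The density ratio for peaks of any strength depended on the choice more: with −log10 q of at least 2 it was 0.735 (control), 0.924 (knockout), 0.731 (vehicle) and 0.817 (rotenone), so the knockout value fell below 1. Inside gene spans it was 1.06, 1.23 and 0.939 in control, knockout and vehicle, and at equal list lengths, an alternative added after seeing the data like that without peak-free stretches, 0.887 in control and 0.994 in the knockout.

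Counts of peaks present in 1 library only were small and unstable. With lists of 60000 against 120000 they were 51 in the knockout, 28 in control, 64 in rotenone, 36 in vehicle and, for vehicle against control, 12 and 9, with their shares in the report. Against partner peaks of any strength they were 0, 1, 1, 1, 0 and 0, or 0%, 1.43%, 1.27%, 1.22%, 0% and 0% of members, where 0.243%, 0.343%, 0.773%, 0.943%, 0.110% and 0.0867% of all strong peaks met the rule. With lists of 15000 against 30000, rotenone gave 8 of 46 (17.4%, interval 9.09 to 30.7, against 5.52% of all), the knockout 4 of 36 (11.1% against 4.90%), control 3 of 33 (9.09% against 5.58%), vehicle 3 of 36 (8.33% against 6.09%), and vehicle against control 0 of 36 and 0 of 33 (0.960% and 0.633% of all). With 50% of a peak covered, control gave 8 against the knockout (11.4% against 13.2% of all) and 3 against vehicle (4.29% against 1.94%). The cause of these changes was not tested, apart from the longer or shorter lists searched. No paired analysis was possible because each group had 1 library. Leaving out a replicate was not possible for the same reason.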
